A study of Mus musculus with 48 samples.

Results

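Expression of 10 genes was followed in mouse liver: the genes for the nuclear receptors CAR (Nr1i3) and PXR (Nr1i2), 6 cytochrome P450 genes known as their targets (Cyp2b9, Cyp2b10, Cyp2c29, Cyp2c55, Cyp3a11 and Cyp3a25), and Por and Alas1, which supply P450 enzymes with electrons and heme. The 10 were taken by symbol from the 14251 genes of the deposited count table, and all 10 were among the 12688 genes that passed the filter on low counts. The study gave male C57BL6J mice corticosterone, the main glucocorticoid of rodents, in the drinking water for 2 weeks, with or without atglistatin, an inhibitor of the triglyceride lipase ATGL, in the food. RNA from whole liver was read by QuantSeq, which sequences 1 short tag near the 3' end of each transcript. The 48 livers formed 4 groups. Cort_ATGLi (14 livers) had corticosterone at 100 ug/ml and atglistatin at 571 mg per kg of food, Cort_CON (14) had corticosterone with control food, EtOH_ATGLi (10) had the 1% ethanol vehicle with atglistatin, and EtOH_CON (10) had vehicle with control food. Of the Cort_ATGLi mice 1 was labelled diabetic, of the Cort_CON mice 9, and of the mice on vehicle none. These labels follow no single cut of the labelled fed glucose. Replicate 36 of Cort_CON was labelled nondiabetic at 242, and replicate 26 of Cort_ATGLi diabetic at 212. The labels give no age, cage or time of day at collection. Nothing in the labels links replicates beyond 1 number per animal, so each library was taken as 1 animal.

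CAR and PXR sense foreign chemicals, steroids and bile acids, pair with the retinoid X receptor, and switch on genes that oxidise, conjugate and export such compounds. CAR is held in the cytoplasm until it is activated, and Cyp2b10 is its textbook target, while Cyp3a11 is that of PXR. In hepatocytes the glucocorticoid receptor is known to regulate the genes of both receptors, and Por and Alas1 are also known to follow the daily clock.

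The P450 genes come as neighbouring copies, so the sequences just upstream of the start are shown for some of them. These are the 2b pair, whose members differed most in response, and the 3a pair, whose members share some 3' sequence with copies outside the pair. Nr1i3, which moved with atglistatin, is shown as well. Each is the 250 bases before the RefSeq start of transcription (GRCm38.p6), 5' to 3' on the gene's strand. Capitals mark the short motifs AGGTCA and AGTTCA (nuclear receptor elements), AGAACA (part of a glucocorticoid response element) and CACGTG (the E-box of clock factors), on either strand; no occurrence overlaps another motif.
Nr1i3, chr1:171213720-171213969, plus strand: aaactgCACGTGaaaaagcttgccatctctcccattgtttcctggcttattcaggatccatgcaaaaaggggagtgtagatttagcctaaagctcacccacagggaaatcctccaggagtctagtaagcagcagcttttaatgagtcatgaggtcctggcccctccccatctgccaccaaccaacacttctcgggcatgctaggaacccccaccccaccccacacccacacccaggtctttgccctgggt
Cyp2b10, chr7:25897408-25897657, plus strand: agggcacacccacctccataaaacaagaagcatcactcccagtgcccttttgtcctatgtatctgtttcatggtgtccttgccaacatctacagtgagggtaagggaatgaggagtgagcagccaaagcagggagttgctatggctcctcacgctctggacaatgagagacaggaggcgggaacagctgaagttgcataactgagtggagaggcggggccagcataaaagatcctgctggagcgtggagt
Cyp2b9, chr7:26173159-26173408, plus strand: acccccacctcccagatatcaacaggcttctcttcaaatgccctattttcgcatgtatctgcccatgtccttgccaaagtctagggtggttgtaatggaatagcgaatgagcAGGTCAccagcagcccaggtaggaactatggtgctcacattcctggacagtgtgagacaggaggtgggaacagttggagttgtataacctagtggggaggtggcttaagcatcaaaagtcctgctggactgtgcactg
Cyp3a11, chr5:145879855-145880104, minus strand: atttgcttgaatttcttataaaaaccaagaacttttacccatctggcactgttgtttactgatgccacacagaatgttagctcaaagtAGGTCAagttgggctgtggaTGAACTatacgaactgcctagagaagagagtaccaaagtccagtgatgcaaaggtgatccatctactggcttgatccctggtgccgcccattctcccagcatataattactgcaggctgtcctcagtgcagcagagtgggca
Cyp3a25, chr5:146009619-146009868, minus strand: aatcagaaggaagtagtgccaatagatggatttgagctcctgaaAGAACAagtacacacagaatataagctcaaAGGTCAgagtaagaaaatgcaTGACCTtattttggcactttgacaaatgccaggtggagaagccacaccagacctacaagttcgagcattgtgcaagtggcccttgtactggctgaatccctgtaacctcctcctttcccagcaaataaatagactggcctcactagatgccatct
All 10 genes matched an entry of the RefSeq window table, which holds 32851 windows. Cyp3a25 and Alas1 each had 2 windows, of which only the first listed was searched. Elements farther upstream than 250 bases were not searched for any gene. The letters AGGTCA were found upstream of 4 of the 10 genes (Cyp2b9, Cyp2c29, Cyp3a11 and Cyp3a25) and in 14% of all windows. AGAACA was found only upstream of Cyp3a25 among the 10 and in 16.1% of all windows, AGTTCA only upstream of Cyp3a11 and in 11.8%, and CACGTG only upstream of Nr1i3 and in 6.02%. The upstream windows of Cyp2b10 and Cyp2b9 were identical at 75.8% of 240 aligned bases, and those of Cyp3a11 and Cyp3a25 at 64.7% of 218.

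Little exact sequence was shared between copies at the 3' end, where QuantSeq reads start. Words of sequence were compared and not reads, and the mismatches allowed in the authors' alignment are not given. Of the distinct 50-base words in the last 300 bases of each gene's coding transcripts (GENCODE M21), 0 occurred in another gene for Cyp2b9, Cyp2b10, Cyp2c29, Cyp2c55, Nr1i3, Nr1i2, Por and Alas1. For Cyp3a11, 2 of 251 words (0.797%) were shared, with Cyp3a63-ps. For Cyp3a25, 75 of 502 words (14.9%) were shared, with Cyp3a59 and Cyp3a57, so some of its reads could belong to these copies. The coding sequences were 87.7% identical between Cyp2b10 and Cyp2b9, 77.5% between Cyp2c29 and Cyp2c55, and 76.1% between Cyp3a11 and Cyp3a25. Exons of Nr1i3 also overlap Tomm40l on the opposite strand over 3304 bases, and those of Cyp2c29 overlap Cyp2c53-ps on its own strand over 142 bases. Whether the authors' counting used strand is not given in the sources used here. Tomm40l averaged 6.34 CPM and was lower with atglistatin (log2 fold change -0.44 under corticosterone and -0.54 under vehicle, adjusted p = 0.0013 and 0.00412), where Nr1i3 was higher. Cyp2c53-ps averaged 1.68 CPM, with log2 fold changes of 2.62 for corticosterone on control food (adjusted p = 0.000118) and 1.60 on atglistatin food (adjusted p = 0.0489). For atglistatin it had -2.23 under corticosterone (adjusted p = 0.000594) and -1.21 under vehicle (adjusted p = 0.433).

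Libraries held 7449109 to 21175603 counted reads. All values below are TMM-scaled CPM, log2 fold changes are from edgeR's quasi-likelihood test with Benjamini-Hochberg adjustment over all genes tested, and a gene is called at an adjusted p of at most 0.05. Hepatocyte markers were high in every library (7 of 7 in the table, summed level 77610 to 148100 CPM). Of these 7, 4 were called higher and 0 lower under corticosterone on control food (22.5% and 21.7% of all genes). On atglistatin food 3 were called higher and 0 lower (19% and 17.7% of all genes). Summed levels of the 8 Kupffer cell and macrophage markers were 53.2 to 303.0 CPM in Cort_ATGLi, 68.3 to 153.0 in Cort_CON, 142.2 to 270.8 in EtOH_ATGLi and 181.8 to 351.1 in EtOH_CON. In 6 libraries of 3 groups the pancreatic gene Cpa1 exceeded 20 CPM. In whole liver, fewer cells of a type and less RNA per cell cannot be told apart.

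On control food, corticosterone went with higher transcript levels across most of the 10 genes. Of these, 8 were called higher in Cort_CON than in EtOH_CON (Nr1i3, Nr1i2, Cyp2b9, Cyp2b10, Cyp2c29, Cyp3a11, Cyp3a25 and Por), 1 lower (Cyp2c55), and Alas1 was not called. The median of Cyp2b9 was nevertheless lower in Cort_CON (0.0742 CPM) than in EtOH_CON (0.183 CPM). The background was broad: 44.2% of all tested genes were called in this comparison, 22.5% higher and 21.7% lower. The median log2 fold change of the 10 was 0.79, against 0.01 over all genes. On atglistatin food, 4 were called higher in Cort_ATGLi than in EtOH_ATGLi (Nr1i2, Cyp2b10, Cyp3a11 and Por) and 2 lower (Cyp2b9 and Cyp2c55), where 36.7% of all genes were called, 19% higher and 17.7% lower. Their median was 0.16, against 0.02 over all genes. The genes were chosen with earlier results of these data known. Their counts and medians, here and below, are therefore a description and no test of the set.

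Atglistatin went with higher Nr1i3 under both drinks. Under vehicle, 3 were called higher in EtOH_ATGLi than in EtOH_CON (Nr1i3, Cyp3a25 and Por) and none lower, where 3.13% of all genes were called, 1.47% higher and 1.66% lower. All 10 fold changes were positive, with a median of 0.69 against 0.00 over all genes. Under corticosterone, Nr1i3 was called higher and Cyp2b10 lower in Cort_ATGLi than in Cort_CON, and the other 8 were not called, where 11.7% of all genes were called, 5.19% higher and 6.47% lower. The corticosterone effect on atglistatin food minus that on control food was negative for all 10 and called for Cyp2b9 and Cyp2b10, where 1.43% of all genes were called. These comparisons share groups, so their values are not independent.

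**Figure D1:**
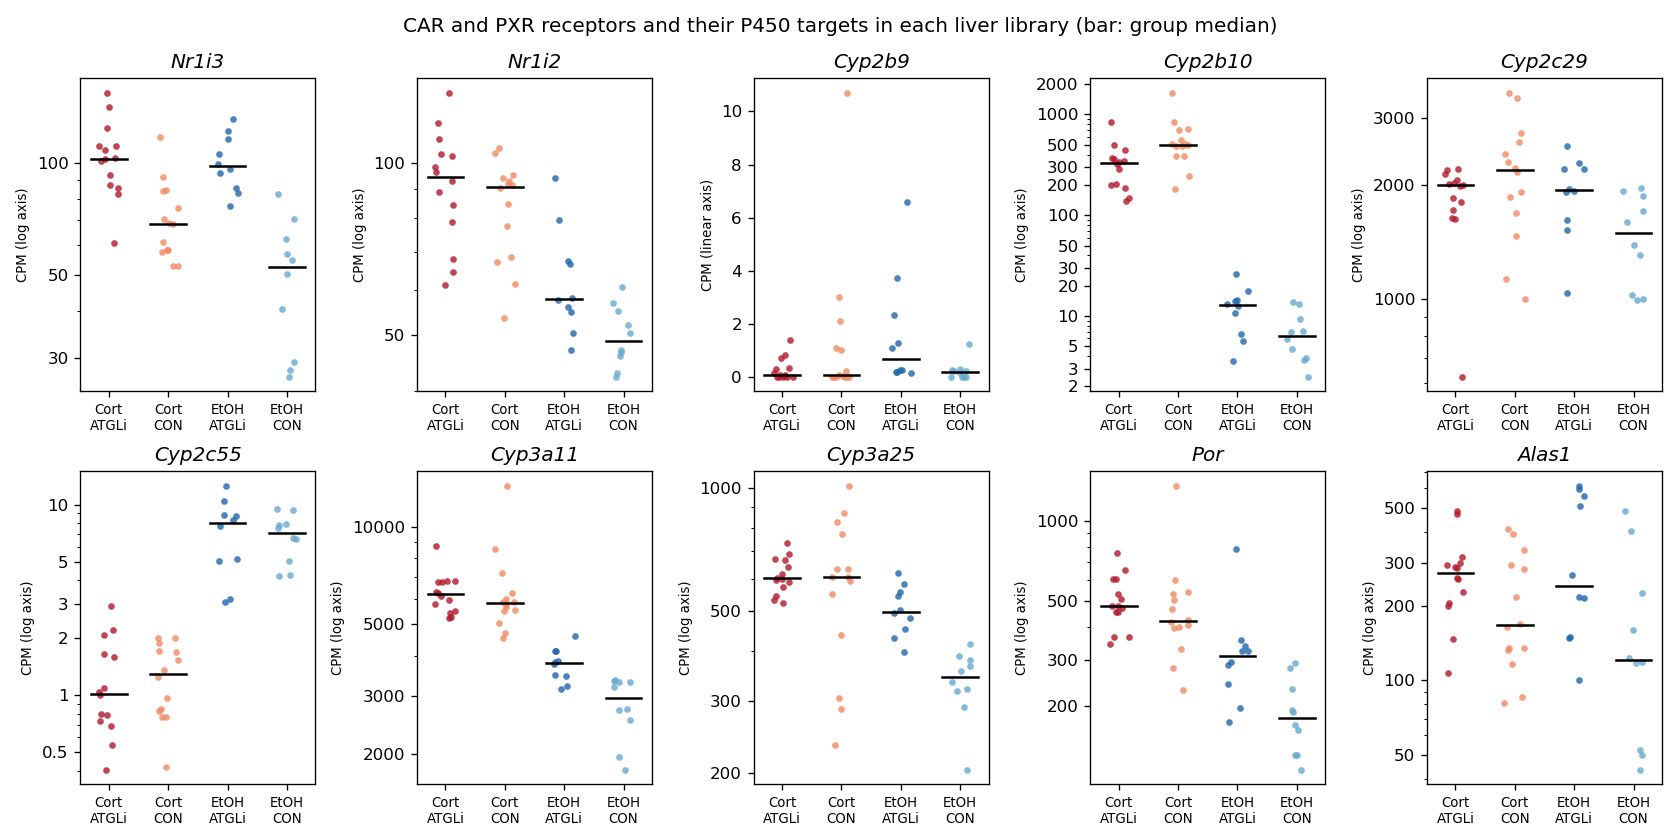
CPM of each of the 10 genes in all 48 liver libraries, by group, with Cort_ATGLi (14) and Cort_CON (14) left of EtOH_ATGLi (10) and EtOH_CON (10); each point is 1 library, the bar is the group median, and axes are logarithmic except for Cyp2b9. All 28 corticosterone libraries lie above all 20 vehicle libraries for Cyp2b10, and below them for Cyp2c55.

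**Figure D2:**
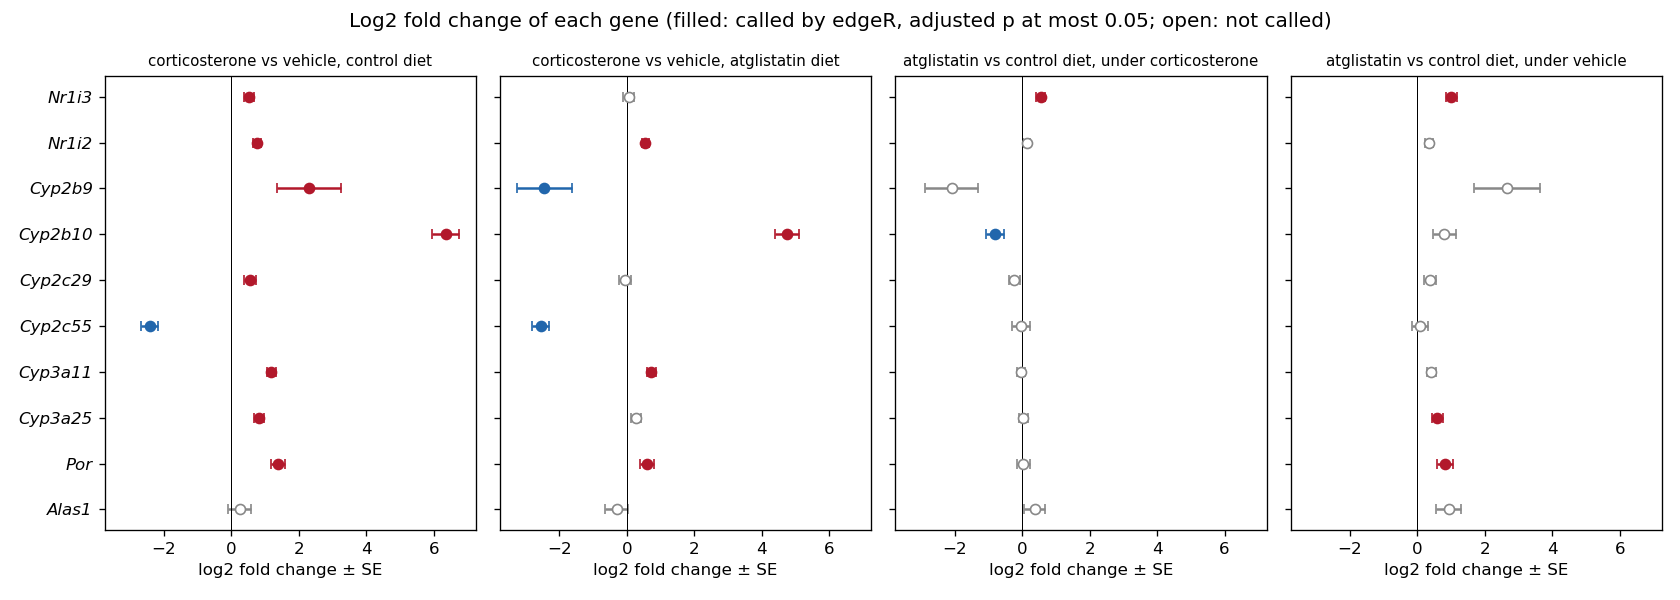
Log2 fold change with its SE for each of the 10 genes in 4 comparisons, on a shared axis. Filled points are called at an adjusted p of at most 0.05, red for higher and blue for lower, and open points are not called. Cyp2b10 stands farthest to the right under corticosterone on both foods.

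In all 4 groups Nr1i3, the gene for CAR, was well above the detection limit. It had 61.0, 102.4 and 154.2 CPM (lowest, median and highest) in Cort_ATGLi and 52.7, 68.6 and 117.4 in Cort_CON. In EtOH_ATGLi it had 76.7, 97.8 and 130.8 CPM, and in EtOH_CON 26.6, 52.4 and 82.4. The groups overlapped in both comparisons, yet all 10 EtOH_ATGLi livers lay above the EtOH_CON mean and 13 of 14 Cort_ATGLi livers above the Cort_CON mean. For atglistatin the log2 fold change was 1.01 ± 0.17 (SE) under vehicle (adjusted p = 0.000154) and 0.55 ± 0.14 under corticosterone (adjusted p = 0.00534). The difference between these was not called (-0.46 ± 0.21, adjusted p = 0.377). Corticosterone raised Nr1i3 on control food (0.51 ± 0.15, adjusted p = 0.00566) and gave 0.05 ± 0.15 on atglistatin food (adjusted p = 0.815). By mean, Cort_ATGLi and EtOH_ATGLi came first and did not differ by call, Cort_CON came next (-0.49 ± 0.15 against EtOH_ATGLi, adjusted p = 0.00626), and EtOH_CON was lowest. The corticosterone call on control food was lost without the libraries labelled diabetic (0.52, adjusted p = 0.0601), as was the atglistatin call under corticosterone (0.51, adjusted p = 0.171); the corticosterone call was also lost without those above 20 CPM of Cpa1 (0.36, adjusted p = 0.0891).

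Nr1i2, the gene for PXR, followed corticosterone. Its lowest, median and highest levels were 61.2, 94.7 and 132.7 CPM in Cort_ATGLi, 53.5, 90.8 and 106.0 in Cort_CON, 47.04, 57.9 and 94.1 in EtOH_ATGLi and 42.2, 48.8 and 60.8 in EtOH_CON. All 14 Cort_CON livers lay above the EtOH_CON mean, although the ranges overlapped, and 13 of 14 Cort_ATGLi livers lay above the EtOH_ATGLi mean. For corticosterone the log2 fold change was 0.75 ± 0.12 on control food (adjusted p = 6.75e-07) and 0.56 ± 0.12 on atglistatin food (adjusted p = 0.00015). For atglistatin it was 0.14 ± 0.10 under corticosterone and 0.34 ± 0.12 under vehicle, neither called (adjusted p = 0.44 and 0.134). The order of means was Cort_ATGLi, Cort_CON, EtOH_ATGLi and EtOH_CON, with only the step between Cort_CON and EtOH_ATGLi called (0.41 ± 0.12, adjusted p = 0.00307; in that comparison 45.1% of all genes were called, 22.9% higher and 22.2% lower).

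Cyp2b10, a P450 that oxidises drugs and steroids, changed most of the 10. It had 139.6, 331.9 and 848.4 CPM in Cort_ATGLi (lowest, median and highest) and 184.0, 498.3 and 1645 in Cort_CON. In EtOH_ATGLi it had 3.602, 12.8 and 26.1 CPM, and in EtOH_CON 2.47, 6.37 and 13.9. The lowest corticosterone liver thus stood above the highest vehicle liver. The log2 fold change for corticosterone was 6.34 ± 0.40 on control food (81.3-fold, adjusted p = 7.17e-18) and 4.75 ± 0.37 on atglistatin food (26.9-fold, adjusted p = 1.33e-14). The effect on atglistatin food minus that on control food was -1.60 ± 0.44, a call near the threshold (adjusted p = 0.0483). Atglistatin gave -0.80 ± 0.27 under corticosterone (adjusted p = 0.0438) and 0.80 ± 0.35 under vehicle (adjusted p = 0.224), so by mean Cort_CON, Cort_ATGLi and EtOH_ATGLi were apart in that order and EtOH_CON did not differ by call from EtOH_ATGLi. Library 45 of Cort_CON was the highest at 1645 CPM, and without it the atglistatin value under corticosterone was -0.59 and not called (adjusted p = 0.128). Without the libraries labelled diabetic it was -0.45 (adjusted p = 0.554) and the difference in corticosterone effects was -1.244 (adjusted p = 0.328).

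Cyp2b9, a neighbour of Cyp2b10 on chromosome 7 and in mice a P450 that is higher in females, was close to the limit of detection. It averaged 0.283 ± 0.421 CPM in Cort_ATGLi, 1.31 ± 2.86 in Cort_CON, 1.62 ± 2.11 in EtOH_ATGLi and 0.242 ± 0.372 in EtOH_CON (SD). Its medians were 0.0822, 0.0742, 0.680 and 0.183 CPM in that order, so on control food the median was lower with corticosterone. No read was counted in 5 Cort_ATGLi, 6 Cort_CON and 4 EtOH_CON libraries, and every EtOH_ATGLi library had reads. The highest values were 1.41 CPM in Cort_ATGLi, 10.7 in Cort_CON, 6.60 in EtOH_ATGLi and 1.239 in EtOH_CON, all groups overlapped, and no neighbours in the order of means differed by call. Corticosterone gave 2.30 ± 0.95 on control food (adjusted p = 0.0443) with 5 of 14 livers above the EtOH_CON mean, and -2.45 ± 0.81 on atglistatin food (adjusted p = 0.015). The difference of these effects was -4.75 ± 1.25 (adjusted p = 0.0391). The value on control food rested on library 30 of Cort_CON, which also held 332.1 CPM of Cpa1: without it the value was 0.93 (adjusted p = 0.441), and without the libraries labelled diabetic it was -0.09 (adjusted p = 0.969). The call on control food was lost in 12 of 24 fits that left out 1 library. The value on atglistatin food was -1.85 without library 14 of EtOH_ATGLi (adjusted p = 0.0831). With DESeq2 no call of Cyp2b9 remained (adjusted p = 0.0591 on control food, 0.051 on atglistatin food and 0.0583 for the difference). With limma voom and sample weights the value on control food was 0.26 (adjusted p = 0.862) and the difference -2.58 (adjusted p = 0.344).

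**Figure D3:**
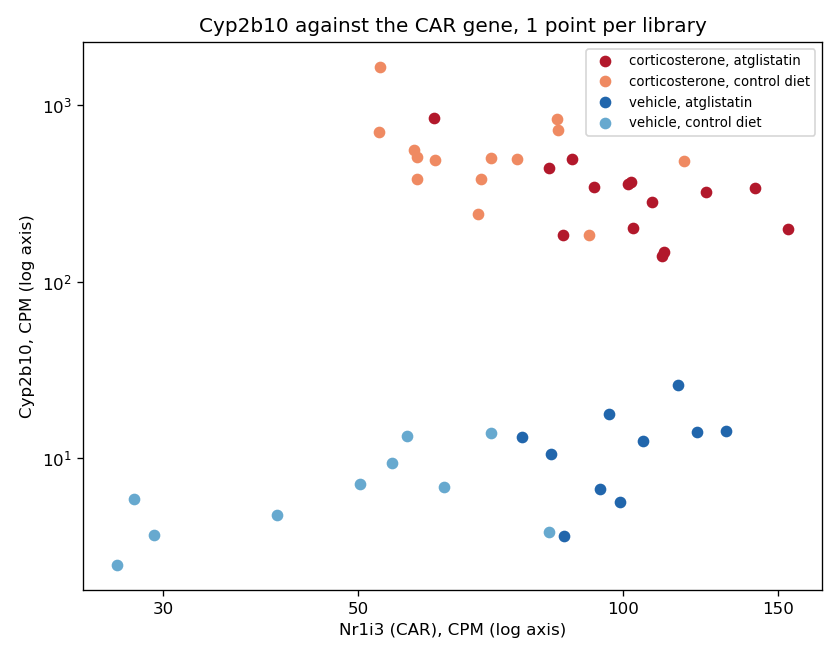
Cyp2b10 against Nr1i3, both in CPM on log axes, with 1 point per library and the colour giving the group. Corticosterone and vehicle libraries form separate bands in Cyp2b10 (139.6 CPM and above, against 26.1 and below) across overlapping levels of Nr1i3.

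Across animals of 1 group, Cyp2b10 did not track the level of Nr1i3 after correction. Pearson's r was -0.57 in Cort_ATGLi (n = 14, Spearman's rho -0.60, permutation p = 0.0321 and 0.026, adjusted p = 0.15 and 0.182 over the 28 relations computed between members), and -0.22 without the 2 farthest libraries. In Cort_CON r was -0.32 and rho -0.34 (permutation p = 0.265 and 0.239), in EtOH_ATGLi 0.44 and 0.50 (permutation p = 0.208 and 0.144), and in EtOH_CON 0.56 and 0.54 (permutation p = 0.0957 and 0.113). In EtOH_CON, Cyp2b9 and Cyp2b10 were higher in the same animals (r = 0.86, rho = 0.94, n = 10, permutation p = 0.00135 and 0.00013, adjusted p = 0.0189 and 0.00364), also without the 2 farthest libraries (r = 0.83), although 4 of the 10 had no Cyp2b9 read. The same pair gave r = -0.31 and rho = -0.25 in Cort_ATGLi, 0.34 and 0.34 in Cort_CON and 0.70 and 0.50 in EtOH_ATGLi, none passing correction (adjusted permutation p = 0.458, 0.458 and 0.148 for r).

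Cyp2c29 and Cyp2c55, 2 copies on chromosome 19 that oxidise drugs and fatty acids, went opposite ways under corticosterone on control food. Cyp2c29 had 622.8, 1996 and 2200.0 CPM in Cort_ATGLi (lowest, median and highest), 1003 to 3507 around a median of 2187 in Cort_CON, 1039, 1939 and 2538 in EtOH_ATGLi and 996.3, 1495 and 1962 in EtOH_CON. All 4 groups overlapped, and library 41 of Cort_ATGLi lay far below the next lowest of its group at 1629 CPM. Corticosterone gave a log2 fold change of 0.55 ± 0.17 on control food (adjusted p = 0.00814, 11 of 14 livers above the EtOH_CON mean) and -0.06 ± 0.17 on atglistatin food (adjusted p = 0.831). The call on control food was lost without the libraries labelled diabetic (0.24, adjusted p = 0.443) and without those above 20 CPM of Cpa1 (0.45, adjusted p = 0.0642). Atglistatin gave -0.23 ± 0.16 under corticosterone and 0.38 ± 0.19 under vehicle, neither called (adjusted p = 0.384 and 0.306). In the order of means (Cort_CON, EtOH_ATGLi, Cort_ATGLi, EtOH_CON) no pair of neighbours differed by call.

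Cyp2c55, known in mice from the intestine as well as from induced liver, was lower in every corticosterone animal than in any vehicle animal. It had 0.403, 1.02 and 2.94 CPM in Cort_ATGLi and 0.418, 1.29 and 1.99 in Cort_CON. In EtOH_ATGLi it had 3.08, 8.01 and 12.6 CPM, and in EtOH_CON 4.21, 7.08 and 9.51. The corticosterone and vehicle ranges did not meet on either food. Its log2 fold change was -2.42 ± 0.25 on control food (adjusted p = 3.47e-11) and -2.55 ± 0.25 on atglistatin food (adjusted p = 9.45e-12), 5.37-fold and 5.85-fold lower. Atglistatin gave -0.04 ± 0.26 under corticosterone and 0.09 ± 0.24 under vehicle, neither called (adjusted p = 0.957 and 0.907), so only the step between corticosterone and vehicle groups was called. Counts were low, 5 to 48 reads per library in Cort_ATGLi. Within Cort_CON, Cyp2c29 and Cyp2c55 were higher in the same animals (r = 0.73, rho = 0.74, n = 14, permutation p = 0.00275 and 0.00358, adjusted p = 0.0257 and 0.0345), with r = 0.49 without the 2 farthest libraries.

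Cyp3a11, the main inducible Cyp3a enzyme of mouse liver, was higher in all corticosterone livers than in the vehicle livers on the same food. It had 5242, 6185 and 8695 CPM in Cort_ATGLi (lowest, median and highest) and 4525, 5803 and 13380 in Cort_CON. In EtOH_ATGLi it had 3161, 3811 and 4589 CPM, and in EtOH_CON 1777, 2972 and 3379. On each food the corticosterone and vehicle ranges did not meet. Under corticosterone the log2 fold change was 1.18 ± 0.13 on control food (2.27-fold, adjusted p = 3.43e-10) and 0.73 ± 0.13 on atglistatin food (1.66-fold, adjusted p = 1.41e-05), and their difference was not called (-0.45 ± 0.18, adjusted p = 0.267). Atglistatin gave -0.03 ± 0.12 under corticosterone and 0.41 ± 0.14 under vehicle, neither called (adjusted p = 0.902 and 0.0907), though the value under vehicle was called with limma voom and sample weights (adjusted p = 0.00748), with only the groups compared (adjusted p = 0.0392) and without the libraries labelled diabetic (adjusted p = 0.0297). Library 45 of Cort_CON was highest at 13380 CPM, and without it the corticosterone value on control food was 1.04 (adjusted p = 4.72e-11).

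Cyp3a25, a second Cyp3a copy, was called higher with corticosterone on control food. It had 523.8, 601.2 and 736.0 CPM in Cort_ATGLi and 234.4, 605.3 and 1015 in Cort_CON. In EtOH_ATGLi it had 397.4, 498.6 and 618.9 CPM, and in EtOH_CON 203.5, 344.8 and 415.7. Cort_CON spread widely, with 11 of 14 livers above the EtOH_CON mean, whereas no Cort_ATGLi liver overlapped EtOH_CON. Corticosterone gave a log2 fold change of 0.83 ± 0.15 on control food (adjusted p = 1.18e-05) and 0.28 ± 0.15 on atglistatin food (adjusted p = 0.143); the difference was not called (-0.55 ± 0.21, adjusted p = 0.217). Atglistatin gave 0.59 ± 0.16 under vehicle (adjusted p = 0.0278), with all 10 livers above the EtOH_CON mean, and 0.04 ± 0.13 under corticosterone (adjusted p = 0.917). Of the means in order (Cort_ATGLi, Cort_CON, EtOH_ATGLi, EtOH_CON) only the last step was called. Without the libraries labelled diabetic the corticosterone value on control food was 0.47 (adjusted p = 0.0291), and the call of atglistatin under vehicle was lost without the libraries above 20 CPM of Cpa1 (0.50, adjusted p = 0.207). In EtOH_CON, Cyp3a11 and Cyp3a25 were higher in the same animals (r = 0.89, rho = 0.84, n = 10, permutation p = 0.00031 and 0.0037, adjusted p = 0.00868 and 0.0345; r = 0.70 without the 2 farthest libraries). Cyp3a59, with which it shares 3' sequence, had log2 fold changes of 1.243 ± 0.245 for corticosterone on control food (adjusted p = 4.05e-05) and 1.05 ± 0.26 for atglistatin under vehicle (adjusted p = 0.0118).

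Por, the reductase that passes electrons to every microsomal P450, was raised by corticosterone on both foods. It had 343.4, 476.7 and 762.2 CPM in Cort_ATGLi (lowest, median and highest), 230.6, 419.5 and 1366 in Cort_CON, 174.1, 308.7 and 787.4 in EtOH_ATGLi and 114.3, 179.9 and 291.7 in EtOH_CON. Cort_ATGLi did not overlap EtOH_CON, while single high libraries (45 of Cort_CON and 14 of EtOH_ATGLi) set the top of 2 groups. The log2 fold change for corticosterone was 1.38 ± 0.22 on control food (adjusted p = 9.49e-07) and 0.61 ± 0.21 on atglistatin food (adjusted p = 0.0218), and atglistatin gave 0.81 ± 0.23 under vehicle (adjusted p = 0.035) and 0.04 ± 0.19 under corticosterone (adjusted p = 0.934). The difference of the corticosterone effects was -0.77 ± 0.30 and was not called (adjusted p = 0.227). By mean, Cort_ATGLi and Cort_CON did not differ by call, EtOH_ATGLi was below Cort_CON (0.57 ± 0.21, adjusted p = 0.0268), and EtOH_CON was lowest. Without library 14 of EtOH_ATGLi the atglistatin value under vehicle was 0.57 and not called (adjusted p = 0.141). Without the libraries above 20 CPM of Cpa1, the value on atglistatin food was 0.56 (adjusted p = 0.0683) and that of atglistatin under vehicle 0.89 (adjusted p = 0.103).

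Alas1, the rate-limiting enzyme of heme synthesis in liver, was not called in any comparison of the main edgeR fit. With 1 library left out, edgeR called Alas1 in 1 of 20 fits for atglistatin under vehicle. The same held in 2 of 24 fits for Cort_ATGLi against EtOH_CON. Its lowest, median and highest levels were 107.4, 272.8 and 483.2 CPM in Cort_ATGLi, 80.9, 167.1 and 408.4 in Cort_CON, 100.7, 241.9 and 614.1 in EtOH_ATGLi and 43.4, 121.1 and 483.6 in EtOH_CON. All groups overlapped, and the EtOH_CON values spanned 11.2-fold. Corticosterone gave a log2 fold change of 0.24 ± 0.34 on control food (95% interval -0.42 to 0.91, adjusted p = 0.592) and -0.30 ± 0.34 on atglistatin food (adjusted p = 0.514), and atglistatin gave 0.38 ± 0.31 under corticosterone (adjusted p = 0.493) and 0.92 ± 0.37 under vehicle (adjusted p = 0.173). With limma voom and sample weights, Alas1 was called higher for corticosterone on control food (0.86, adjusted p = 0.0366), for atglistatin under vehicle (1.30, adjusted p = 0.0215) and in Cort_ATGLi against EtOH_CON (1.29, adjusted p = 0.00125).

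Clock gene levels differed between the groups, and the time of day was not given. A clock index, taken as Dbp less Arntl in log2 CPM (clock genes that peak in opposite phases), averaged 0.57 ± 1.27 in Cort_ATGLi, -1.88 ± 1.16 in Cort_CON, 2.98 ± 2.11 in EtOH_ATGLi and -0.87 ± 1.74 in EtOH_CON (SD). It was chosen after the values were seen. With the index as a covariate, no member was called for atglistatin under either drink or for the difference of the corticosterone effects. The index itself differed between the foods under both drinks, so these fits cannot tell a difference in the index from an effect of atglistatin. Nr1i3 then had 0.73 for atglistatin under vehicle (adjusted p = 0.151) and 0.35 under corticosterone (adjusted p = 0.205), Cyp3a25 had 0.42 (adjusted p = 0.551) and Por 0.07 under vehicle (adjusted p = 0.964), and Cyp2b10 had -0.83 under corticosterone (adjusted p = 0.104). In the corticosterone comparisons on control food all 9 calls held, and on atglistatin food 5 of 6 held, Por having 1.12 there and Cyp2b9 being lost (-1.92, adjusted p = 0.143). Within EtOH_ATGLi, Por followed the index (r = 0.92, rho = 0.78, n = 10, permutation p = 0.00042 and 0.0106, adjusted p = 0.0168 and 0.358 over 40 relations; r = 0.73 without the 2 farthest libraries). Alas1 gave r = 0.69 and rho = 0.62 there (permutation p = 0.024 and 0.0623, adjusted p = 0.385 and 0.498). Of the 40 relations, only that of Por passed correction, and only by r.

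**Figure D4:**
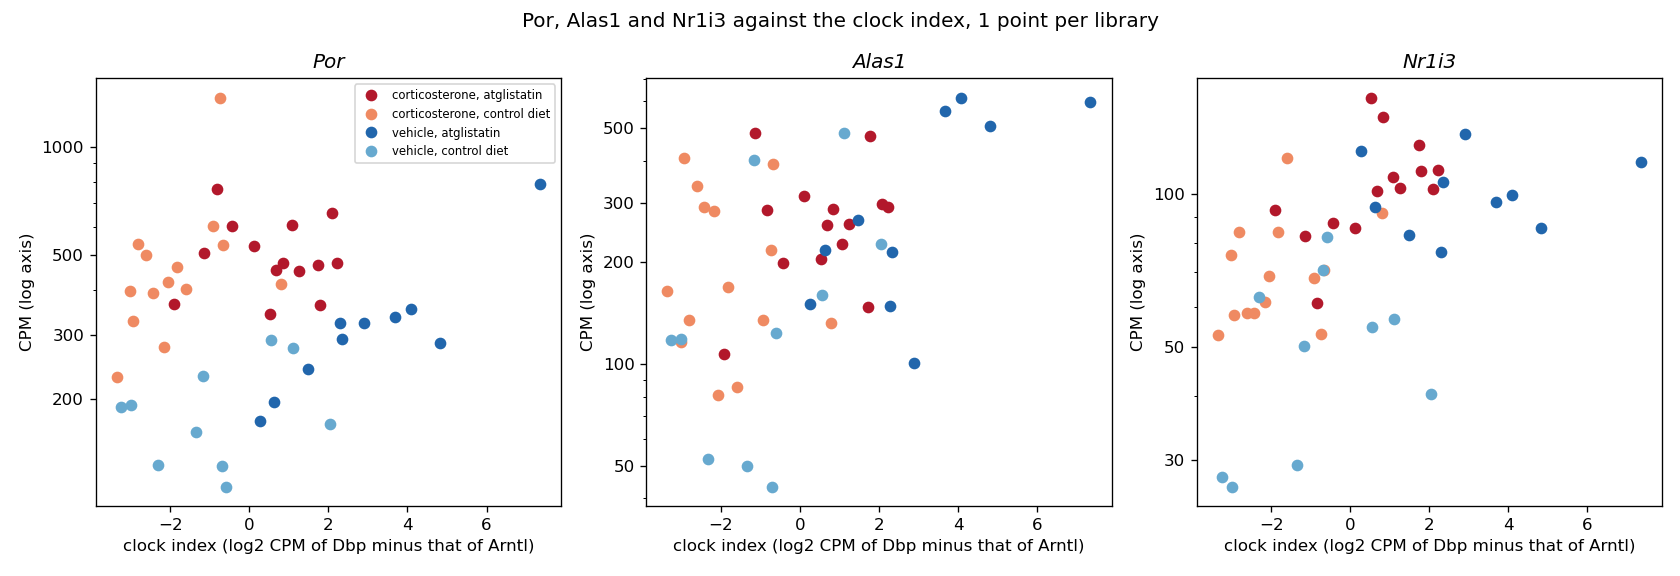
Por, Alas1 and Nr1i3 in CPM on a log axis against the clock index, with 1 point per library and colours for the 4 groups. EtOH_ATGLi livers reach an index of 7.35, and library 14 at that end holds the highest vehicle value of Por (787.4 CPM).

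Corticosterone and atglistatin together, against neither, left 6 of the 10 genes called higher in Cort_ATGLi than in EtOH_CON and Cyp2c55 called lower, where 43.6% of all genes were called, 22.2% higher and 21.4% lower. Nr1i3 had a log2 fold change of 1.06 ± 0.16 (adjusted p = 2.34e-07) and Nr1i2 one of 0.89 ± 0.12 (adjusted p = 2.03e-08). Cyp2b10 had 5.55 ± 0.39, Por 1.42 ± 0.22, Cyp3a11 1.14 ± 0.13 and Cyp3a25 0.86 ± 0.15. Nr1i2, Cyp2b10, Cyp2c55, Cyp3a11, Cyp3a25 and Por did not overlap between the 2 groups. The share of all genes without overlap was not counted, so this describes single genes and not a trait of the set. Cyp2b9, Cyp2c29 and Alas1 were not called (adjusted p = 0.89, 0.13 and 0.14), although limma voom with sample weights called Cyp2c29 (0.46, adjusted p = 0.00758) and Alas1 (1.29, adjusted p = 0.00125).

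Within Cort_CON, the 9 livers labelled diabetic and the 5 labelled nondiabetic gave no called member (edgeR, 1 of 10 at an unadjusted p under 0.05), where 0% of 12003 genes were called and 448 had an unadjusted p under 0.05. That member was Cyp2c55 (log2 fold change 0.72 ± 0.31, adjusted p = 0.992), and Cyp2b10 had 0.49 ± 0.37 (adjusted p = 0.992). Neither limma voom with sample weights nor DESeq2 called a member.

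Of 56 other listed targets of CAR and PXR, 45 were tested. This list too was chosen with earlier results of these data known, so its counts are a description. Under corticosterone 18 were called higher and 8 lower on control food (median log2 fold change 0.19), where 22.5% of all genes were called higher and 21.7% lower. On atglistatin food 17 were called higher and 8 lower (median 0.08), where 19% and 17.7% of all genes were. The flavin monooxygenase Fmo5 rose by 2.07 ± 0.12 on control food (adjusted p = 6.13e-20) and 1.83 ± 0.11 on atglistatin food (adjusted p = 8.37e-18). The sulfotransferase Sult1d1 rose by 3.03 ± 0.20 on control food (adjusted p = 1.38e-17) and 2.10 ± 0.19 on atglistatin food (adjusted p = 9.07e-13). The estrogen sulfotransferase Sult1e1 was higher by 7.40 ± 1.00 on atglistatin food, and Gadd45b, a stress gene that binds CAR, by 4.03 ± 0.45 on control food. With atglistatin, 18 were called higher and 5 lower under corticosterone (median 0.30), where 5.19% of all genes were called higher and 6.47% lower, and 13 higher and 1 lower under vehicle (0.48), where 1.47% and 1.66% were. The smallest adjusted p with atglistatin belonged to the glutathione transferase Gstm1 (1.20 ± 0.09 under corticosterone and 0.95 ± 0.11 under vehicle), Cyp1a2 (1.62 ± 0.18 and 1.41 ± 0.22), Ugdh (0.69 ± 0.08 and 0.62 ± 0.09), Ugt2b35 under corticosterone (0.89 ± 0.09) and Cyp2a5 under vehicle (1.86 ± 0.24). The difference of the corticosterone effects was called for 3 of 45, Gstt3, Sult1d1 and Slco1a4, each negative. Over all genes 0.701% were called higher and 0.725% lower for this difference.

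**Figure D5:**
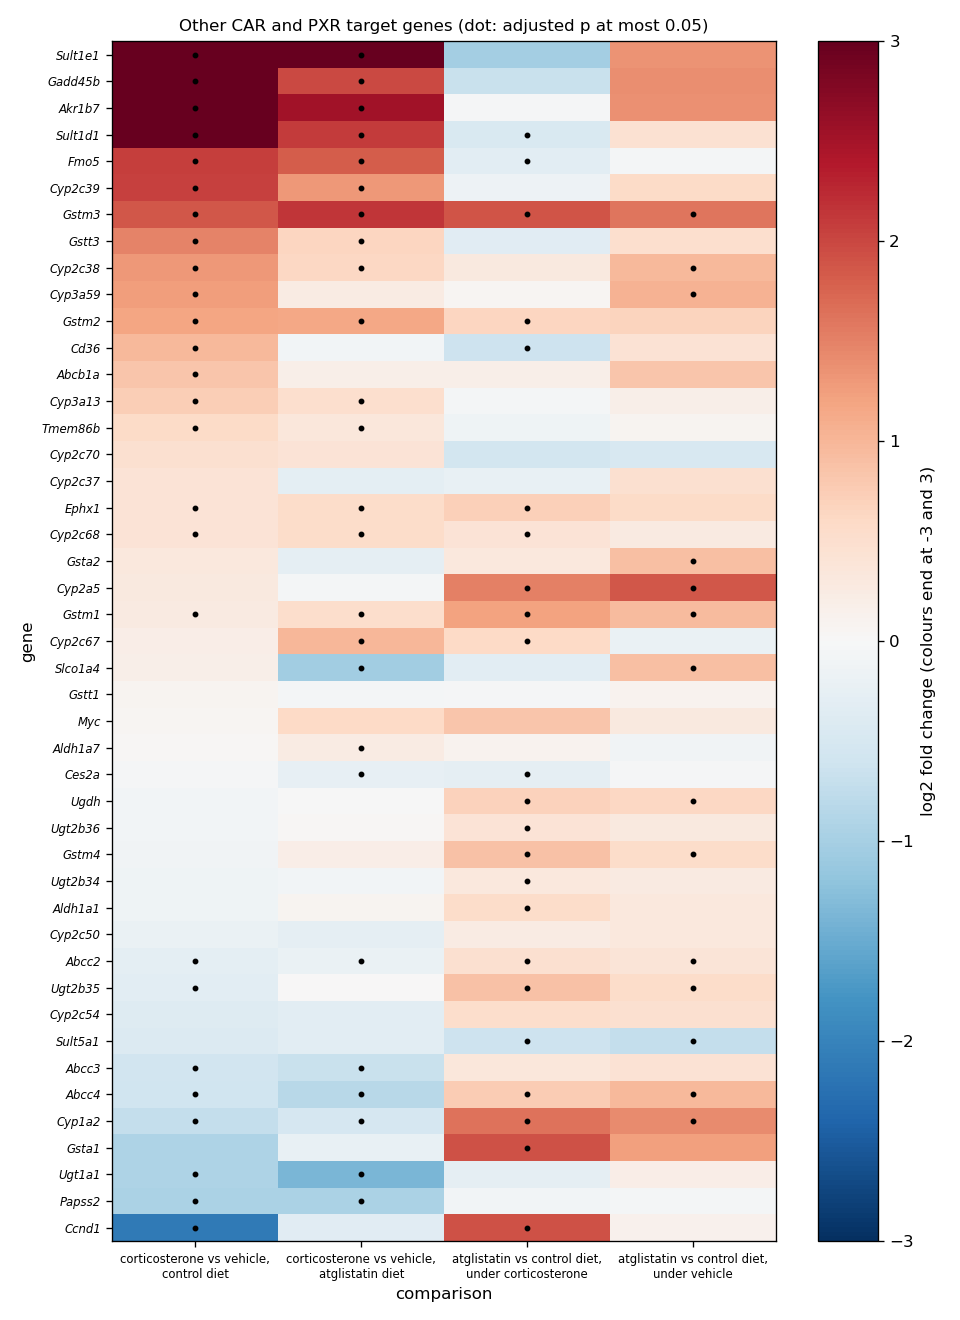
Log2 fold change of the 45 tested other targets of CAR and PXR (rows, ordered by the corticosterone value on control food) in 4 comparisons (columns); colours end at -3 and 3, and a dot marks an adjusted p of at most 0.05. Gstm3 is called higher in all 4 columns, while Cyp1a2 is blue in the corticosterone columns and red in the atglistatin columns.

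Of 26 listed receptor partners, 4 were called higher and 2 lower under corticosterone on control food (22.5% and 21.7% of all genes), and 3 and 3 on atglistatin food (19% and 17.7%). With atglistatin 0 were called higher and 2 lower under corticosterone (5.19% and 6.47% of all genes), and 0 and 1 under vehicle (1.47% and 1.66%). Nr3c1, the glucocorticoid receptor, was lower with corticosterone (-0.42 ± 0.07 on control food, adjusted p = 1.42e-06, and -0.26 ± 0.07 on atglistatin food, adjusted p = 0.00184). Hnf4a, a hepatocyte factor that acts on the genes of both receptors, was higher (0.65 ± 0.09 and 0.34 ± 0.09, adjusted p = 3.72e-08 and 0.00151), as was Foxo1, a partner of CAR (0.70 ± 0.12 and 0.43 ± 0.11). Nr0b2, the repressor SHP, was lower (-0.85 ± 0.21 and -0.72 ± 0.21, adjusted p = 0.00083 and 0.00559). Rxra, the common partner, had 0.12 ± 0.09 and -0.04 ± 0.09 and was not called, nor was the coactivator Ppargc1a (0.25 ± 0.17 and -0.02 ± 0.16).

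Of 6 other P450 electron donors, 4 were called lower and 1 higher under corticosterone on control food and 4 lower and none higher on atglistatin food, where Por was higher on both; over all genes 21.7% and 17.7% were called lower. Fdxr, the mitochondrial ferredoxin reductase, fell by 0.73 on control food (SE 0.06, adjusted p = 2.83e-14) and by 0.62 on atglistatin food (SE 0.06, adjusted p = 5.27e-12), and Cyb5b, a cytochrome b5, fell by 0.81 (SE 0.11) and 0.37 (SE 0.11). Of 14 other heme genes, 2 were called higher and 3 lower on control food, and 2 and 2 on atglistatin food, against 44.2% and 36.7% of all genes called in either direction. Cpox rose (0.54 ± 0.09 and 0.53 ± 0.09), whereas Fech, which inserts the iron, fell (-0.40 ± 0.05 and -0.39 ± 0.05). With atglistatin, Blvrb, a biliverdin reductase, was higher under both drinks (0.64 ± 0.11 under corticosterone and 0.47 ± 0.14 under vehicle).

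Other P450 genes are known to differ by sex in mice, as Cyp2b9 does. Of 13 listed female-biased genes, 8 were tested; 7 were called higher and none lower under corticosterone on control food (22.5% and 21.7% of all genes), and 4 higher and 1 lower on atglistatin food (19% and 17.7%). Cyp17a1, a steroid hydroxylase, had 4.21 ± 0.50 on control food and 3.23 ± 0.47 on atglistatin food, and Cyp39a1, an oxysterol hydroxylase, had 2.70 ± 0.25 and 1.82 ± 0.23. Of 7 male-biased genes, 2 were called higher and 1 lower on control food, and 1 and 1 on atglistatin food, against 44.2% and 36.7% of all genes called in either direction. With atglistatin under vehicle, Cyp4a14 (1.89 ± 0.39, adjusted p = 0.00194) and Cyp4a10 (1.29 ± 0.31, adjusted p = 0.0105), fatty acid hydroxylases, were called higher.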

How the data were processed

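Whole-liver RNA of 48 mice was read by QuantSeq 3' sequencing. The authors deposited a table of raw counts per gene and a table of signal values that are those counts divided by size factors; per the submitters' processing notes R 3.6, DESeq2 1.24.0 and the GRCm38 build were used, and no aligner, counting setting or strand is named there or in the labels. The deposited counts were used for all tests; counts and normalized values matched to within rounding. Symbols came from the deposited signal table for 12491 genes and from GENCODE M21 for 1728, and 32 had none.

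In R 4.3.3, 1 edgeR 4.0.16 quasi-likelihood fit with a mean per group covered all 48 libraries, after TMM scaling and filterByExpr with a minimum count of 10, keeping 12688 genes (12003 within Cort_CON). Adjusted p is Benjamini-Hochberg over all genes tested, called at 0.05. P-values measure spread between these libraries; depth was 7449109 to 21175603 reads per library. Permutation tests of correlations were two-sided with 100000 resamples. Alternatives were RLE scaling, no filter, limma 3.58.1 voom with sample weights, DESeq2 1.42.0, only the groups compared, leaving out libraries (each in turn, those labelled diabetic, those above 20 CPM of Cpa1), a replicate block and, added after the data were seen, the clock index and the same-numbered libraries without the block. The edgeR fit was tested on simulated data. Beyond the 10 members, named genes were, per list and comparison, those with the smallest adjusted p at a mean of at least 1 CPM, up to 4, plus Nr3c1, Rxra, Hnf4a, Ppargc1a and Nr0b2. Members and lists were chosen with earlier results of these data known.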

Additional observations from a re-analysis of the deposited data

Results flagged for a closer look

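Of 40 sets of 5 to 10 libraries examined for a value far from the rest (10 genes in EtOH_ATGLi, in EtOH_CON, and in the Cort_CON livers by diabetes label), 8 held one, where chance gives about 1 in 20, or 2. That rate holds for independent sets of normally distributed values. CPM of the same libraries in several genes need not be so, and the rate is only a guide. Library 45 of Cort_CON, labelled diabetic, stood apart in 3 genes, with 1645 CPM of Cyp2b10, 13380 CPM of Cyp3a11 and 1366 CPM of Por. Library 14 of EtOH_ATGLi had 787.4 CPM of Por, beside a clock index of 7.35. Library 29 of Cort_CON, labelled nondiabetic, had 117.4 CPM of Nr1i3 and 1.08 CPM of Cyp2b9. Cyp2b9 was also far above its group in library 30 of Cort_CON, labelled diabetic (10.7 CPM), and in library 4 of EtOH_CON (1.239 CPM).

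An interaction term between corticosterone and food was called by edgeR for 7 of the genes described, where 1.43% of all genes were called. These were 2 of the 10 members, 3 of 45 tested other targets and 2 of 8 tested female-biased P450 genes. The other lists held none. Values under the alternatives were taken only for the 10 members. The call of Cyp2b10 was lost in 33 of 48 fits that left out 1 library and in 3 of 7 other alternatives, and that of Cyp2b9 in 13 of 48 and 5 of 7. On the log2 scale the effect on atglistatin food minus that on control food was -4.75 for Cyp2b9, -1.60 for Cyp2b10, -0.84 for Gstt3, -0.93 for Sult1d1, -1.22 for Slco1a4, -1.95 for Cyp4a10 and -1.83 for Cyp4a14.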

How the results depend on the processing

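Of 29 called results for single members, 13 kept their direction and their call under every alternative run, and of 984 alternative values 854 were unchanged in call, 127 lost it and 3 changed sign. Nr1i2, Cyp2b10, Cyp2c55, Cyp3a11, Cyp3a25 and Por kept their corticosterone calls on control food throughout. RLE size factors, no filter and a fit of only the groups compared moved no count of genes past 1.5 times.

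With limma voom and sample weights, changed together, 899 genes and 6 members were called for atglistatin under vehicle, and 359 genes and 1 member for the difference of the corticosterone effects, of which DESeq2 also called 1 member. Without the libraries labelled diabetic, 3614 genes were called for corticosterone on control food, where Cyp2b9 turned to -0.0856, 609 genes and 0 members for atglistatin under corticosterone, and 76 genes and 0 members for the difference. Without the libraries above 20 CPM of Cpa1, 1 member was called for atglistatin under corticosterone, 207 genes and 1 member under vehicle, and 64 genes and 0 members for the difference. With the clock index, 793 genes and 0 members were called for atglistatin under corticosterone, 15 genes and 0 members under vehicle, and 0 members for the difference. Leaving out libraries leaves fewer samples; the cause of each change was otherwise not tested.

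Same-numbered libraries exist in 2 comparisons, 4 pairs for atglistatin under vehicle and 2 for corticosterone on atglistatin food. Their deviations correlated by -0.127 to 0.0323 and by -0.072. So few pairs cannot show whether the numbers pair libraries, and with 2 pairs both correlations are equal by construction. With the replicate block, 4 genes and 0 members were called in the atglistatin comparison and 56 genes and 0 members in the corticosterone comparison, where Por turned to -0.0927. The same libraries without the block gave 0 genes and 0 members, and 300 genes and 2 members, with Por at -0.203.

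Leaving out 1 library at a time gave 1 to 2 members for atglistatin under corticosterone, 1 to 4 under vehicle and 0 to 2 for the difference. The difference in Cyp2b10 lost its call in 33 of 48 such fits and its atglistatin value under corticosterone in 16 of 28. Counting error limits Cyp2b9 (0 to 159 reads per library) and Cyp2c55 most.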

Other observations

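Among 8252 genes averaging at least 5 CPM, those most like each of 3 members over the 48 libraries, by Pearson's r of log2 CPM after group means were removed, were as follows, as a description. For Nr1i3 they were 4930523C07Rik (0.78), Hnf4aos (0.76) and Tmem219 (0.73). For Cyp2b10 they were Aifm2 (0.76), Tmem87b (0.74) and Gadd45b (0.72). For Cyp3a11 they were Stxbp3 (0.71), Acadm (0.70) and Psmb5 (0.69).

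Labelled insulin was set against each member within the 2 corticosterone groups, 20 relations in all, and none passed correction. The strongest was Cyp3a25 in Cort_CON (r = 0.74, rho = 0.34, n = 14, permutation p = 0.00362 and 0.241, adjusted p = 0.0724 and 0.602), with r = 0.43 without the 2 farthest libraries.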
